A study of Bos taurus with 147 samples.

Results

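The comparison described here is that of Piedmontese x Hereford (PH) with Wagyu x Hereford (WH) longissimus muscle at the third of the 3 postnatal times of a crossbred cattle experiment, called T3 in the sample labels. It comprises all 4 arrays, of 147 in the series, on which PH T3 muscle RNA was hybridised together with WH T3 muscle RNA. PH was labelled with Cy5 and WH with Cy3 on arrays 1 and 3, and the dyes were exchanged on arrays 2 and 4. The same experiment holds 4 arrays of PH against WH at T1, 4 at T2 and 8 that join successive times within a cross. The labels give no age for T1, T2 or T3, no sex, no diet, no treatment and no number of animals, and they do not say whether an RNA sample came from 1 animal or from a pool. Both crosses share a Hereford parent and differ in the other breed.

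Piedmontese cattle are known for heavy muscling and are widely fixed for an inactivating variant of the myostatin gene, whose product limits muscle growth. Wagyu cattle are known for fat deposited within muscle. Longissimus is a mainly fast-twitch back muscle that also holds slow fibres, connective tissue and fat cells, and muscle RNA carries transcripts of all of them. Whether the PH animals of this experiment carried the myostatin variant is not given in the labels.

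Every value below is a log2 ratio of PH over WH after each array was centred on its median, so that 1 means 2 times more in PH and -1 means 2 times more in WH. The 4 arrays had between 20808 and 20946 usable elements of 21168. After filtering, 17067 features were tested, of which 970 were named genes and the others were elements with no gene name in the annotation used here. The direction of the ratio is a likely one, taken as Cy5 over Cy3. Read that way, the later of 2 fetal stages had more PYGM, the muscle glycogen phosphorylase, on 19 of 19 arrays of the same table and less FN1, fibronectin, on 19 of 19. On the 1 array of PH T1 RNA against itself, 10.6% of features had a ratio over 0.5 in size, against 16.3% to 35.2% on the single T3 arrays and 4.68% for the mean of the 4 T3 arrays. Ratios carry no level, so the presence of muscle, fat or connective tissue cells could not be read from marker genes.

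The 4 arrays fell into pairs, each with both dye orders. Once the fitted dye term was removed, arrays 1 and 2 correlated at 0.63 over named genes and arrays 3 and 4 at 0.84, while correlations between the pairs ran from -0.28 to -0.14. For 521 of the 970 named genes (53.7%) the means of the 2 pairs had opposite signs, and for 102 they differed by more than 1. The genes with the widest gaps, picked after their values were seen, show how far apart the pairs were. LOC515358 had ratios of 1.81 and 2.13 on arrays 1 and 2, against -2.01 and -1.80 on arrays 3 and 4. PLN, the inhibitor of the slow calcium pump, had -1.40 and -0.75 on arrays 1 and 2, and 0.98 and 1.49 on arrays 3 and 4. FOS, an immediate early transcription factor, was at -0.12 and -0.18 on the first pair and at -2.88 and -1.83 on the second. The labels do not say which arrays share an RNA sample, so p-values here measure only the spread between arrays, which may be technical for arrays 1 and 2 and for arrays 3 and 4.

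Few features differed between PH and WH at T3. In the limma fit of all 20 arrays of the experiment, 4 of 17067 features passed an adjusted p of 0.05 (0.0234%), 2 higher and 2 lower in PH, and 0 of 970 named genes did. At an unadjusted p under 0.05 there were 1637 features (9.59%) and, among named genes, 129 (13.3%), of which 79 were higher (8.14%) and 50 lower in PH (5.15%). The largest mean ratios of named genes were 1.08 and -1.25, the median size was 0.16 and the median standard error 0.15. With arrays 1 and 2, and 3 and 4, averaged into 1 value each, 0 features passed and 246 had an unadjusted p under 0.05. With a term for each cross and time, which assumes that direct and indirect ratios add up, 95 features passed (54 higher, 41 lower), of which 15 were named genes. With every element tested on its own 22 of 20523 passed, and 15 of these were among the 4426 elements of named genes. They came from 6 genes: 7 of IGFBP5, read by 16 elements, 3 of COL3A1, read by 66, and 2 of DDIT4, read by 2. SCD, USP2 and LOC511516, read by 2 elements each, had 1 each. Without centring 0 were higher and 2 lower, and with MAD scaling 1 was higher and 2 lower.

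The 2 elements lower in PH were 6737 and 6940, and they lie 203 places apart in the table. That is the distance between 1335 of the 2080 pairs of elements that share a sequence accession, and the array is described as printed in duplicate. Element 6737 had ratios of -1.75, -1.81, -1.60 and -1.94 on arrays 1 to 4, and element 6940 had -1.71, -1.83, -1.50 and -1.90. All 8 values lay close together, with pair means of -1.78 and -1.77 for element 6737 and of -1.77 and -1.70 for element 6940. The PH level was 0.292 and 0.300 of the WH level (adjusted p = 0.000273 each, limma). The same elements were near 0 at T1, at 0.01 each, and at -0.86 and -0.82 at T2 (adjusted p = 0.0200 and 0.0178, limma). Elements 10379 and 2075 were higher in PH, with mean ratios of 1.66 (SE 0.25, adjusted p = 0.0378, limma) and 0.81 (SE 0.13, adjusted p = 0.0478, limma). Element 10379 spanned 0.63 to 2.32 over the 4 arrays and element 2075 spanned 0.64 to 1.04.

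Named genes are therefore given by their values. All 4 T3 arrays lay above 0 for 126 named genes (13.0%, against 7.01% of all features) and below 0 for 79 (8.14%, against 6.79%). The 10 genes of smallest p on each side among these are shown in the plot of leading genes.

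**Figure D1:**
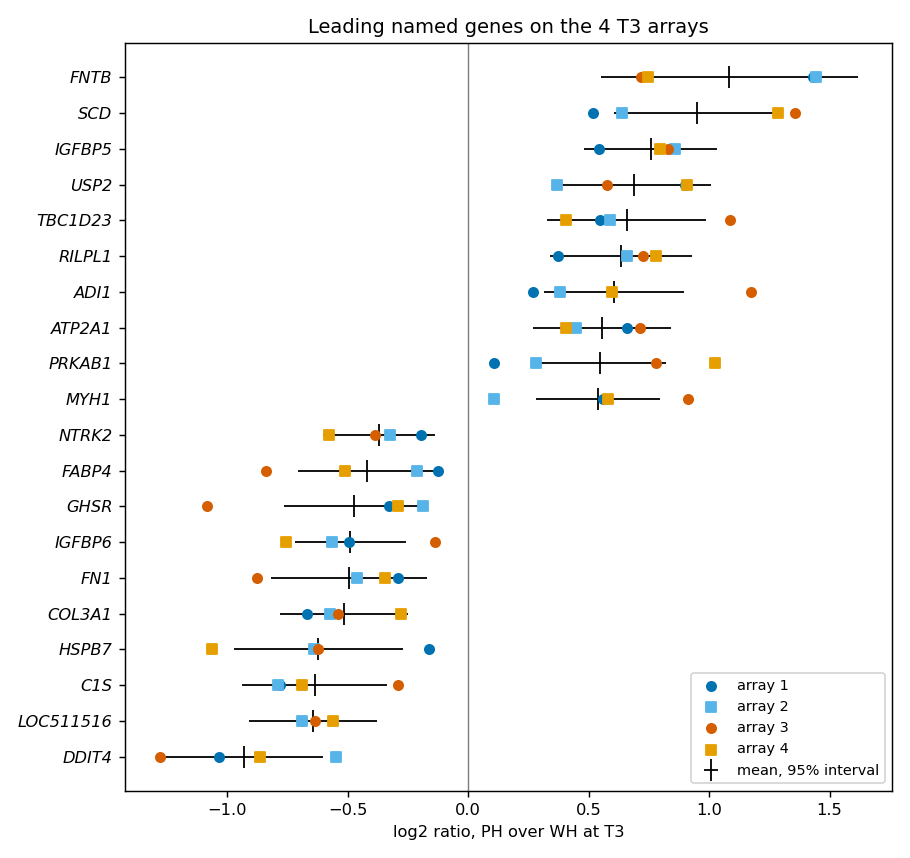
Log2 ratio of PH over WH at T3 (horizontal axis) of the 10 named genes on each side with the smallest p among those whose 4 arrays share a sign. Points are single arrays, the bar is the mean with its 95% interval from limma, and none of the 20 genes passes an adjusted p of 0.05, the closest being DDIT4 at 0.0609.

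Among genes above 0 was SCD, stearoyl-CoA desaturase, which makes monounsaturated fatty acids. Like FNTB, DDIT4, FMOD and RPL14 below, it was read by only 2 elements. Its ratios were 0.52 and 0.64 on arrays 1 and 2, and 1.35 and 1.28 on arrays 3 and 4. All 4 were positive, the second pair being higher than the first, with a mean of 0.95 (SE 0.16, adjusted p = 0.0627, limma). IGFBP5, an IGF-binding protein read by 16 elements, had 0.54, 0.86, 0.83 and 0.80 on arrays 1 to 4, a mean of 0.76 (SE 0.13, adjusted p = 0.0627, limma). Unlike SCD it did not separate the pairs. MEF2C, a transcription factor of muscle differentiation, had 0.25, 0.57, 1.37 and 1.09 and a mean of 0.82 (adjusted p = 0.170, limma).

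Fast-fibre genes stood in the same group. MYH1, a fast myosin heavy chain whose probes may also bind transcripts of its close relatives, had 0.56, 0.11, 0.91 and 0.58. ATP2A1, the calcium pump of fast fibres read by 38 elements, had 0.66, 0.45, 0.71 and 0.41. Their means were 0.54 (SE 0.12) and 0.56 (SE 0.14), and both pairs of arrays gave ATP2A1 the same value, 0.55 and 0.56. FNTB, the beta subunit of farnesyltransferase, had the highest mean of any named gene, 1.08 (SE 0.25), with 1.43 and 1.44 on the first pair and 0.72 and 0.75 on the second. The other leading genes were USP2, a deubiquitinase (mean 0.69), TBC1D23 (0.66), RILPL1 (0.63), ADI1, an enzyme of methionine salvage (0.61), and PRKAB1, a regulatory subunit of AMP-activated kinase (0.55). Their adjusted p ran from 0.120 to 0.137 in limma. ATP2A1 was at 0.692 at T1 and 0.175 at T2, and FNTB at 0.931 and 0.466.

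Below 0, the leading gene was DDIT4, an inhibitor of the growth kinase mTORC1 that is induced by stress and glucocorticoids. It had -1.03, -0.55, -1.28 and -0.86 on arrays 1 to 4, all on the WH side, and a mean of -0.93 (SE 0.15, adjusted p = 0.0609, limma). In 3 of the 16 alternative fits it passed, with adjusted p from 0.0115 to 1.00 over them. It stood at 0.14 at T1 and 0.07 at T2. LOC511516 had 4 closely spaced values between -0.69 and -0.56, and IGFBP6, another IGF-binding protein, averaged -0.49 (SE 0.11). C1S, a complement protease, averaged -0.64, HSPB7, a small heat shock protein, -0.62, GHSR, the ghrelin receptor, -0.47, beside -2.23 on the self-hybridised array, and NTRK2, a neurotrophin receptor, -0.37. IGFBP6 was at -0.114 at T1 and -0.585 at T2, and HSPB7 at -0.484 and -0.789, with adjusted p of 0.0113 and 0.0259 at T2 in limma. The remaining 3 leading genes below 0 were matrix and fat cell genes: COL3A1, FN1 and FABP4.

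Fibroblast markers had means on the WH side. All 7 measured fibroblast markers of 8 listed had a mean below 0, against 43.3% of named genes and 47.4% of all features, and 5 of 7 were negative on all 4 arrays, against 8.14%. Their median was -0.35, beside 0.04 for all named genes and 0.01 for all features, and the medians on single arrays ran from -0.54 to -0.24. The list median was 0.10 at T1 and -0.33 at T2. None passed the test. COL3A1, the type III collagen chain read by 66 elements, had -0.67, -0.58, -0.54 and -0.28, with a mean of -0.52 (SE 0.13, adjusted p = 0.149, limma). COL1A1 and COL1A2, the chains of type I collagen, averaged -0.42 (SE 0.15) and -0.35 (SE 0.14), and FN1 averaged -0.49 (SE 0.15). Each was negative on 4 of 4 arrays. DCN, decorin, was at -0.03 and LUM, lumican, at -0.19, with arrays of both signs. Of 7 collagens measured, 4 had a mean below 0, while COL4A1, COL12A1 and COL5A3 were at 0.03, 0.05 and 0.09. Of 26 other matrix genes 19 lay below 0 (median -0.11), among them BGN, biglycan (-0.33), and SPARC, which binds collagen (-0.26). On the PH side of that list were TIMP3, an inhibitor of matrix proteases (0.39), and GPC3, a glypican (0.39). In bulk muscle, fewer cells of a type and less RNA per cell cannot be told apart.

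Fat cell genes were less uniform. Of 7 measured adipocyte markers 6 had a mean below 0 (median -0.21), but the medians were -0.02 and -0.09 on arrays 1 and 2 and -0.48 and -0.51 on arrays 3 and 4. ADIPOQ, the adipokine adiponectin read by 22 elements, had -0.02, -0.09, -1.18 and -0.72, and FABP4, the fatty acid carrier of fat cells read by 76, had -0.13, -0.21, -0.84 and -0.51. Both were close to 0 on the first pair and negative on the second (means -0.50, SE 0.19, and -0.42, SE 0.13, adjusted p = 0.377 and 0.296, limma). CIDEC, a lipid droplet protein, and DGAT2, which makes triglyceride, turned sign between pairs, with 0.89 and 0.15 against -1.17 and -1.70 for CIDEC, and 0.73 and -0.33 against -1.26 and -1.79 for DGAT2. Of 8 lipogenic enzymes SCD and ELOVL5 had means above 0, SCD at 0.95 and ELOVL5 at 0.02, while ACACA, FASN and ACLY, the enzymes of fatty acid synthesis from acetyl-CoA, had -0.26, -0.20 and -0.09. Over 29 adipocyte and lipid genes the median was -0.08, 11 lay above 0 and 18 below. FABP5, another fatty acid carrier, was at -0.08 (SE 0.12).

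Genes of fast fibres lay on the PH side. All 10 measured had a mean above 0, against 56.6% of named genes and 52.4% of all features, and 4 of 10 were positive on all 4 arrays, against 13.0%. The median was 0.19, and array medians were 0.07 and 0.07 on the first pair against 0.51 and 0.27 on the second. The list median was 0.07 at T1 and 0.18 at T2. After ATP2A1 and MYH1 came MYL1, a fast myosin light chain with values from -0.68 to 1.22 (mean 0.29), and CASQ1, which stores calcium in fast fibres (0.21). TPM1, a tropomyosin, was positive on all 4 arrays (0.13, 0.29, 0.09 and 0.23). The wider list of muscle fibre markers was less uniform, with 8 of 12 measured above 0 and 4 below (median 0.10). Its array medians were -0.25 and -0.09 on the first pair against 0.37 and 0.39 on the second. Slow-fibre genes were split 5 to 5 with a median of 0.08. The lowest was CSRP3, a Z-disc protein, with -1.51 and -1.67 on arrays 1 and 2 and 0.15 and -0.19 on arrays 3 and 4, so that its mean of -0.80 rests on the first pair. Over the 37 sarcomere genes 29 lay above 0 (median 0.18), with negative medians on arrays 1 and 2 (-0.10 and -0.14) and positive ones on arrays 3 and 4 (0.45 and 0.23). MYOZ3, a Z-disc protein of fast fibres, led them with 0.38, 0.44, 1.02 and 0.61 (mean 0.61). TPM2, another tropomyosin, was positive on all 4 arrays but far apart between pairs, with 0.19 and 0.08 against 1.01 and 0.86. Among 9 genes of calcium handling 8 lay above 0 (median 0.23). These lists overlap, as ATP2A1 of the fast-fibre list is also in that of calcium handling and MYH1 in that of sarcomere genes. STAC3, which serves excitation-contraction coupling, had 0.24 and -0.35 on the first pair and 1.00 and 0.96 on the second.

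**Figure D2:**
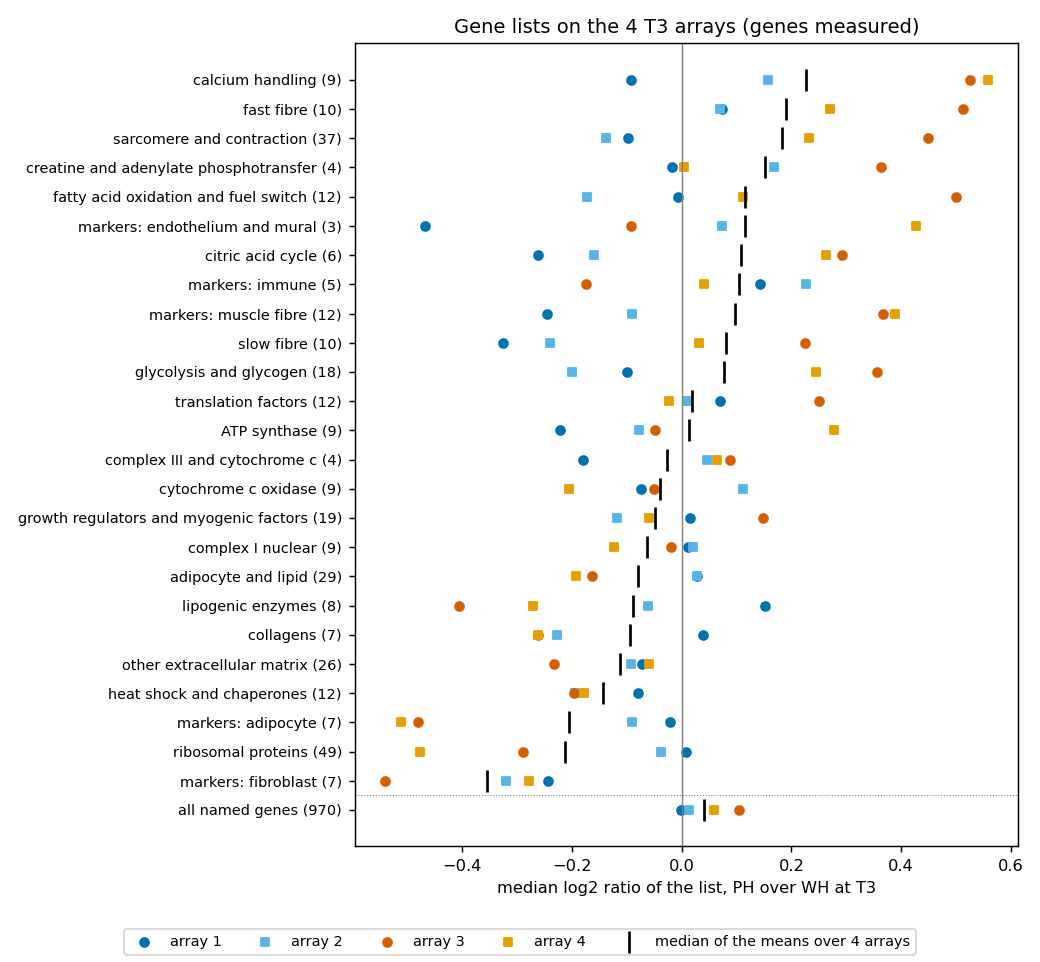
Median log2 ratio of PH over WH at T3 (horizontal axis) of each gene list, with the number of genes measured in brackets, on each of the 4 arrays (points) and for the means over the arrays (vertical strokes). Fast-fibre genes lie above 0 and fibroblast markers below 0 on every array, whereas sarcomere genes lie below 0 on arrays 1 and 2 and above 0 on arrays 3 and 4.

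Energy metabolism showed no common direction. Glycolysis and glycogen genes had a median of 0.08, with 12 of 18 above 0. PYGM had -0.12 and -0.21 on the first pair and 1.29 and 1.05 on the second, and CKM, muscle creatine kinase, had 0.02, 0.06, 0.98 and 0.77. CKM was 1 of 4 measured genes of creatine and adenylate phosphotransfer. All 4 had a mean above 0, against 56.6% of named genes (median 0.15, lowest 0.04). LDHB, the lactate dehydrogenase subunit of oxidative tissue, was positive on all 4 arrays (0.52, 0.37, 0.46 and 0.60, mean 0.49, SE 0.14). ALDOA, aldolase of muscle, was at -0.10 (SE 0.10). The medians of complex I, complex III, cytochrome c oxidase and ATP synthase genes lay between -0.06 and 0.01, that of 6 citric acid cycle genes was 0.11 and that of 12 genes of fatty acid oxidation 0.12, among them HADHB of the mitochondrial trifunctional protein (0.41, SE 0.14). PDK4, the kinase that turns off pyruvate dehydrogenase, was negative on all 4 arrays, with -0.26, -0.39, -1.07 and -0.47 (mean -0.55, SE 0.34).

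Growth regulators and myogenic factors were led in both directions by genes already named, IGFBP5 and MEF2C above 0, and FOS, CSRP3 and IGFBP6 below. Of 19 measured, 7 lay above 0 and 12 below (median -0.05), and 0 passed. MYF6, a myogenic factor of mature fibres, had 0.10 and -0.02 on arrays 1 and 2 and 1.21 and 0.78 on arrays 3 and 4. MYOG, myogenin, had -0.79 and -0.84 on the first pair and 0.19 and 0.04 on the second, so that each of these factors stood apart from 0 on 1 pair only. IGF1, the growth factor, averaged -0.34 (SE 0.18), and IGF2 averaged 0.19 (SE 0.10). Myostatin (MSTN) and follistatin (FST) were not among the named genes analysed here.

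Ribosomal protein genes had means below 0 for 46 of 49, against 43.3% of named genes, with a median of -0.21. Of the 49, 13 had an unadjusted p under 0.05, all lower in PH (5.15% of named genes), and 0 passed the adjusted threshold. RPL18 had -0.10, -0.35, -0.29 and -0.60 (mean -0.33, SE 0.11) and RPL10 had -0.47, -0.34, -0.14 and -0.06 (mean -0.25, SE 0.09). The list median was 0.01 and -0.04 on arrays 1 and 2, against -0.29 and -0.48 on arrays 3 and 4. It was also below 0 at T1 (-0.12) and T2 (-0.16). Ribosomal protein probes can bind transcripts of related copies, so single members are uncertain. Of 12 chaperones 8 lay below 0 (median -0.14), against 43.3% of named genes, and 6 were negative on all 4 arrays, against 8.14%. The chaperone median was further from 0 at T1 (-0.383) and T2 (-0.235). Among the 6 was CRYAB, the small heat shock protein of muscle, with -0.25, -0.30, -0.76 and -0.86 (mean -0.54, SE 0.21, adjusted p = 0.406, limma). CRYAB was at -0.80 at T1 and -0.47 at T2. HSPB1, another small heat shock protein, was close to 0 on the first pair (-0.13 and -0.05) and low on the second (-1.50 and -1.38).

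A partial list of 48 genes was drawn from those that the study of fetal muscle from the same crosses lists as differing by sire breed or discusses. Of the 44 measured, 25 had a mean above 0 and 19 below (median 0.04), and 0 passed. MATR3, a nuclear matrix protein, turned sign between pairs, with -0.41 and -0.74 on arrays 1 and 2, and 0.83 and 0.77 on arrays 3 and 4. Of other cells, 3 of 12 endothelial and mural markers were measured (median 0.12) and 5 of 16 immune markers (median 0.10), and no blood or nerve marker. Their part in the results was not tested.

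The breed difference at T3 was next set against that at T2, to ask which genes changed their PH to WH ratio between the times. In the limma fit 63 of 17067 features passed (0.369%), all with a higher ratio at T3 than at T2, and 852 had an unadjusted p under 0.05 (4.99%). Of the 63, 4 were named genes (0.412% of 970): SCD, FMOD, SQSTM1 and RPL14. With the replicate number as a block 70 passed, 56 higher and 14 lower, of which 54 were among the 63, and these 4 genes passed there too. Of the 59 unnamed elements, 42 stand in 21 pairs that lie 203 or 244 places apart, the spacings of most elements of 1 sequence. With arrays averaged by pairs 0 features passed, the smallest adjusted p being 0.749 with 3 residual degrees of freedom.

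SCD had the smallest p of the named genes. At T3 its ratios ran from 0.52 to 1.35, as given above, and at T2 they were -1.39, -1.64, -1.41 and -1.14. The arrays of the times T3 and T2 did not overlap and had opposite signs. The difference was 2.34 (SE 0.23, adjusted p = 0.000262, limma), a 5.07-fold change of the ratio. At T1 SCD had 0.42, 1.08, 0.35 and 0.48, positive as at T3, so that T2 stood apart from both. Leaving out any 1 T3 array kept the difference between 2.163 and 2.485, and it passed each time.

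FMOD, fibromodulin, a proteoglycan that binds collagen, had 0.69, -0.18, 0.18 and 0.12 at T3 and -0.90, -1.19, -1.09 and -1.14 at T2. It was thus close to equal in the crosses at T3 and lower in PH at T2 (difference 1.28, SE 0.21, adjusted p = 0.00703, limma). Its ratio on the self-hybridised array was 0.58, the widest of these 4 genes. SQSTM1, the autophagy receptor p62, had 0.15, 0.27, 0.84 and 0.46 at T3 and -0.55, -0.72, -0.25 and -0.23 at T2 (difference 0.87, SE 0.16, adjusted p = 0.0242, limma). RPL14, a protein of the large ribosomal subunit, had 0.09, 0.16, 0.43 and 0.51 at T3 and -1.07, -1.34, -1.09 and -0.38 at T2 (difference 1.27, SE 0.25, adjusted p = 0.0369, limma). RPL14 no longer passed without any 1 of the T3 arrays (adjusted p 0.0674 to 0.168), and SQSTM1 no longer passed without array 2, 3 or 4 (adjusted p 0.0601 to 0.111). SQSTM1 passed in 8 of 15 alternatives, and also failed without centring, with the 12 arrays of PH against WH and with every element on its own.

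**Figure D3:**
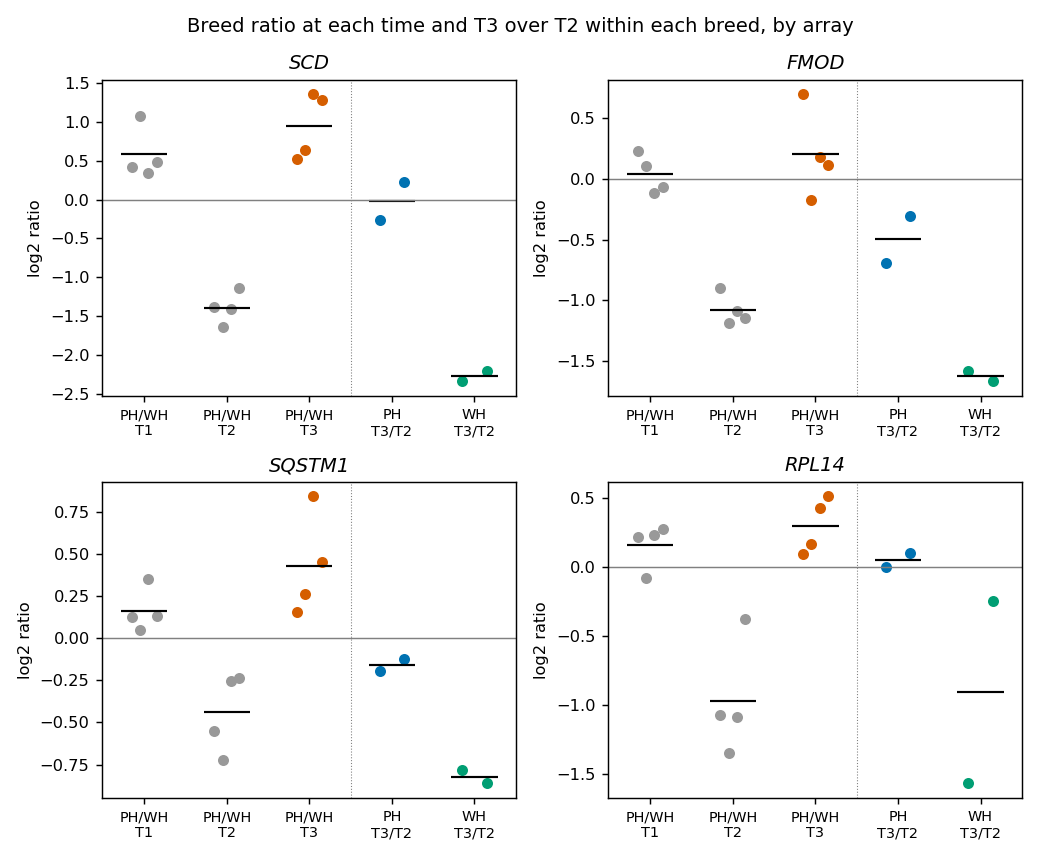
Log2 ratios (vertical axes, scaled per panel) of SCD, FMOD, SQSTM1 and RPL14 on single arrays (points), with plain means (lines). The left part of each panel gives PH over WH at T1, T2 and T3 and the right part T3 over T2 within PH and within WH, and in each panel the T2 ratios lie below those at T1 and T3. The genes were picked by their T3 to T2 difference on the PH over WH arrays shown.

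Other arrays of the experiment measured the step between T2 and T3 within each cross, on 2 arrays each. On them SCD was at -0.09 in PH (SE 0.25) and at -2.20 in WH (SE 0.25, adjusted p = 0.000528, limma) for T3 over T2. WH muscle thus had 0.218 of its T2 level of SCD at T3, and the difference of the 2 steps, 2.11, stood beside the 2.34 of the direct arrays. FMOD was at -0.39 in PH and -1.74 in WH, SQSTM1 at -0.10 and -0.88, and RPL14 at 0.02 and -0.88. Of these the WH steps of FMOD and SQSTM1 passed (adjusted p = 0.00121 and 0.0205, limma) and that of RPL14 did not (0.130), its 2 arrays being at -1.57 and -0.24. Over the 63 features, T3 over T2 had a median of -0.07 in PH and -1.46 in WH. In PH 0 passed, beside 1.15% of all features higher and 0.322% lower in PH at T3. In WH all 63 were below 0 and 49 passed, beside 0.949% of all features lower in WH at T3. The difference between the steps was above 0 for 62 of 62 features with a value, against 43.4% of all features. Within each cross both arrays have 1 dye order, so these steps rest on the dye term estimated from the other arrays, and they may hold the same RNA samples as the direct ones.

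**Figure D4:**
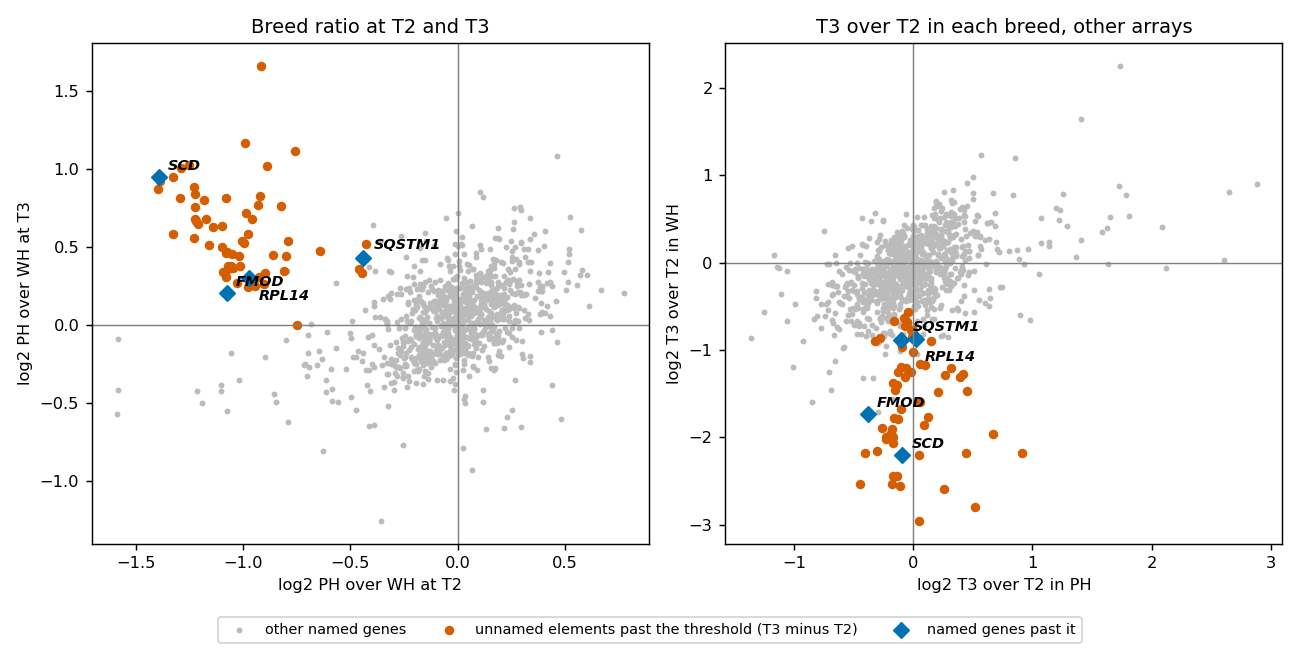
Left, log2 ratio of PH over WH at T2 (horizontal) and T3 (vertical); right, log2 ratio of T3 over T2 in PH (horizontal) and in WH (vertical), from other arrays. Grey points are named genes, orange points the unnamed elements and blue diamonds the named genes past an adjusted p of 0.05 for T3 minus T2, which lie below 0 at T2 and, with 1 element as the exception, above 0 at T3. The left panel shows the arrays by which these features were picked, so their place there is partly built in.

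The 63 features had a median ratio of 0.54 at T3 and -1.05 at T2, and of 0.32 at T1. All 63 were below 0 at T2, where 54 passed on their own (1.01% of all features did, in that direction), and 62 of 63 were above 0 at T3, where 2 passed. The 63 had been picked by their T3 to T2 difference on these same arrays. Their values and counts at T2 and T3 are thus partly built in and are no separate result. Of 7 adipocyte markers and 7 collagens 0 passed the test of the difference, which 0.369% of all features passed. At an unadjusted p under 0.05 in limma, 2 of 7 in each list were higher at T3 than at T2, beside 546 of 17067 features. In the other direction were 1 adipocyte marker and 0 collagens, beside 306 features. FABP4 was at -0.42 at T3 and -1.11 at T2 (difference 0.68, adjusted p = 0.322, limma), ADIPOQ at -0.50 and -1.19 (0.69, adjusted p = 0.773) and COL1A1 at -0.42 and -1.22 (0.79, adjusted p = 0.265). COL3A1 was at -0.52 at T3 and -0.33 at T2, further from 0 at T3 (-0.19), and COL6A2 was at -0.09 and -0.10.

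Against T1 the T3 ratio changed for 2 of 17067 features (0.0117%), elements 6737 and 6940, both lower at T3 by 1.78 and 1.74 on the log2 scale (adjusted p = 0.0218 each, limma), and for 0 of 970 named genes, with 1126 features at an unadjusted p under 0.05 (6.6%). Leaving out any 1 T3 array left 0 features past the threshold (adjusted p 0.067 to 0.139 for both elements), while the differences stayed between -1.808 and -1.709. With MAD scaling 2 features passed that were both higher, and without centring 2 were higher and 2 lower. An estimate of PH over WH at T3 from the T2 ratio and the steps between T2 and T3, which uses the 4 direct arrays only through the shared dye term and spread, gave 0 features in limma (503 at an unadjusted p under 0.05, 2.95%). By this route SCD was at 0.71 (SE 0.41), DDIT4 at -1.02, IGFBP5 at 0.70, MYH1 at 0.55, ATP2A1 at 0.47, COL3A1 at -0.72 and FABP4 at -0.30, beside direct values of 0.95, -0.93, 0.76, 0.54, 0.56, -0.52 and -0.42. Other leading genes were closer to 0 by this route, HSPB7 at -0.21, IGFBP6 at -0.20 and GHSR at -0.19, beside direct values of -0.62, -0.49 and -0.47. ADIPOQ was at -0.05 beside -0.50, and the median of the adipocyte markers turned sign, to 0.16 beside -0.21. Elements 6737 and 6940 were at -2.13 and -2.03, beside -1.77 and -1.74.

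The same crosses were also compared in newborn calves, in fetuses at d 60 of gestation and under high and low diets, on 1 to 3 arrays of 1 dye order each, so dye and cross cannot be told apart there and no test was made. SCD was at -0.67, -0.47 and -2.05 at birth and at 0.39, 0.76 and 1.44 at d 60. COL3A1 was negative at birth as at T3 (-0.74, -0.70 and -1.12), and slightly positive at d 60 (0.20, 0.16 and 0.20). IGFBP5 was at -0.01, -0.20 and -1.30 at birth, where T3 had 4 positive values. DDIT4 was at 0.59, 0.59 and -0.18 at birth, where T3 had 4 negative values. FABP4 was close to 0 at birth on these arrays (-0.04, -0.05 and 0.04). By qRT-PCR, however, the study of these fetal and newborn crosses reported more FABP4 in Wagyu-sired calves at birth. On the 2 low-diet arrays DDIT4 was at 0.12 and -1.17 and IGFBP5 at -0.07 and 1.11, and on the high-diet array they were at 0.03 and -0.24. Low-diet array 2 also read 7.09 for ANGPTL4, 5.15 for IGFBP6 and -3.53 for SDHA, so its single values are uncertain. There FABP4, at 1.25, and COL3A1, at 0.795, had the opposite sign to T3.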

How the data were processed

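Log2 ratios of Cy5 over Cy3, as deposited by the authors, were used for 46 columns of the main value table and 3 columns of a second one, and 24 and 74 other columns were not used. The methods describe scanning, background correction and log transformation for fetal arrays, and for the postnatal arrays the processing, and with it the scale and centring, was not given in the sources used here. Array medians between -0.316 and 0.141 show that the deposited log2 values of these 20 arrays were not centred on their medians. The values carry no intensity, so the depth of signal behind a ratio is unknown, and the number of arrays limits the precision.

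Each array was centred on its median. Ratios at the upper limit of the table (50 to 62 per T3 array) were set to missing, as were features without a value on all 4 T3 arrays and on 16 of the 20. Of 21168 elements, 4490 had 1 gene name, 188 several and 16490 none, and 4472 of the 4490 were found in the reference by gene ID. Elements of 1 gene name were averaged on each array, unnamed elements were kept singly, and those with several names were not named. limma 3.58.1 in R 4.3.3 fitted a mean for each of 7 pairs of groups that met on an array, plus a dye intercept, with Benjamini-Hochberg adjustment over all features and a threshold of 0.05. Same-numbered arrays of T3 and T2, which also share a dye order, deviated together from their means (r 0.39 to 0.46 for 4 of 4 pairs). The numbers were therefore taken to pair these times, from the data and not from the labels. T1 arrays deviated with T2 arrays of the same number (r 0.2 to 0.63) but with T3 arrays of another number, such as array 2 of T1 with array 4 of T3 (r 0.55). What a number stands for is thus not known. The fit was tested on simulated data with independent errors on every array. That test could not show how the p-values behave where arrays fall into pairs, as they did here. Alternatives changed the arrays fitted, the model, the dye term, centring, scaling, filter, array weights and replicates.

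Genes are named if among the 10 per direction past the threshold, filled up with those of smallest p whose 4 arrays share a sign, among the 3 of smallest p in each list, in the cell type marker lists, or among FABP4, FABP5, SCD, ALDOA and MATR3. FMOD, SQSTM1, RPL14 and other genes named beside these were picked after their values were seen. Members and lists were chosen with earlier results of these data known.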

Additional observations from a re-analysis of the deposited data

Results flagged for a closer look

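Among 102 results at T3 with 4 arrays each, 2 had 1 array far from the other 3. The cut-off used marks about 1 in 20 groups of 4 independent values. The arrays here fell into pairs and some genes were chosen for 4 arrays of 1 sign, so that rate does not apply to them. GHSR had -1.083 on array 3, against -0.33, -0.19 and -0.29 on arrays 1, 2 and 4. MB, myoglobin, had -0.228 on array 1, against 0.04, 0.05 and 0.02 on arrays 2, 3 and 4.

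The PH over WH ratio differed between T3 and T2 by a test of the difference for SCD (2.342), FMOD (1.28), SQSTM1 (0.87) and RPL14 (1.271). Of the elements that passed at T3 itself, it also differed from T2 for element 10379 (2.576) and element 2075 (1.893). It differed from T1 for element 6737 (-1.781) and element 6940 (-1.743), for which the adjusted p was 0.0218 each in limma and 0.067 to 0.139 without 1 T3 array, the differences then being between -1.808 and -1.709.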

How the results depend on the processing

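At T3 4 features passed, against 95 with a term for each cross and time, 22 with every element on its own, 7 with the replicate block (FNTB the only named gene), 2 without centring, 0 with the 4 T3 arrays alone and 0 with arrays averaged by pairs, an alternative chosen after seeing the data; leaving out 1 T3 array gave 2 to 3. For T3 minus T1, where 2 passed, the same order of settings gave 19, 13, 4 and 4, then 4 without the dye term, 0 with array weights, 0 with pairs averaged and 0 to 0 without 1 T3 array. For T3 minus T2, where 63 passed, 149 passed with a term for each cross and time (129 higher), 0 with pairs averaged and 47 to 53 without 1 T3 array, and the replicate block gave 70, of which 80% were higher. The indirect estimate gave 6 instead of 0 with capped ratios kept. The cause of these shifts was not tested, beyond the fewer arrays or the assumed additivity that some settings build in. Same-numbered arrays deviated together for T3 and T2 but not for T3 and T1, where they correlated between -0.22 and 0.13. There other numbers went together, array 1 of T1 with array 3 of T3 at 0.35 and array 2 of T1 with array 4 of T3 at 0.55. The block still used the same numbers at T1, T2 and T3, so for T3 minus T1 it rests on a pairing the data do not show. It ended no call of the 4 named genes in T3 minus T2. The block could not be fitted for the indirect estimate.

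Of the values of named genes at T3, 1518 kept direction and side of the threshold, 18 of 15 genes passed that had not, and 32 of 15 genes changed sign, all of genes at an unadjusted p of 0.05 or more. With MAD scaling BOLA-DRB3 came to -0.036, CD74 to 0.036, MATR3 to -0.053 and NEB to -0.075, and with array weights to -0.034, 0.034, -0.067 and -0.073. BOLA-DRB3 came to -0.021 without centring, LEP to 0.039 with a term for each cross and time, and CKMT2 to -0.485 with capped ratios kept and -0.046 with every element on its own. Leaving out 1 T3 array in turn, the values ran from -0.039 to 0.257 for ACTA1, -0.065 to 0.234 for ACTA2, -0.065 to 0.069 for BOLA-DRB3, -0.05 to 0.28 for C1QA, -0.124 to 0.083 for CD74, -0.057 to 0.008 for DCN, -0.02 to 0.287 for EGFL7, -0.148 to 0.08 for LEP, -0.358 to 0.096 for LUM, -0.179 to 0.387 for MATR3, -0.083 to 0.022 for MB, -0.141 to 0.181 for NEB, -0.051 to 0.409 for SUCLG1 and -0.136 to 0.06 for TNNT1. The list medians of fast-fibre, sarcomere, fibroblast, adipocyte, ribosomal and other matrix genes kept their sign in all 16 alternatives, and that of slow-fibre genes in 14. The median of collagens was -0.253 without array 1, and that of creatine genes -0.141 with capped ratios kept.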
